A study of Mus musculus with 2 samples.

Results

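Oxidative phosphorylation is the chain of 5 protein complexes in the inner mitochondrial membrane that passes electrons to oxygen and uses the resulting proton gradient to make ATP. Its genes are split between 2 genomes: most subunits are encoded in the nucleus, and a small set of core subunits is encoded by the mitochondrial DNA, under symbols starting with mt-. Photoreceptors are known for a high energy demand and for mitochondria packed into the inner segment, and Müller glia (MG) are known for leaning more on glycolysis. The genes described here are those of the count table whose symbol starts with Nduf, Sdha, Sdhb, Sdhc, Sdhd, Uqcr, Cox4, Cox5, Cox6, Cox7, Cox8, Atp5 or mt-, leaving out symbols that hold -ps. The rule found 109 of 25778 genes, of which 96 were nuclear and 13 were mt- genes. Complex I (NADH dehydrogenase) was represented by 36 nuclear subunits, 8 assembly factors and 7 mt- genes, complex II (succinate dehydrogenase) by 4 subunits and 4 assembly factors, and complex III (the cytochrome bc1 complex) by 8 nuclear subunits and 1 mt- gene. Complex IV (cytochrome c oxidase) was represented by 18 nuclear subunits, 3 mt- genes and Cox7a2l, a supercomplex assembly factor, and complex V (ATP synthase) by 17 nuclear subunits and 2 mt- genes.

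The data are single-cell RNA-seq of dissociated whole retina at 30 days of age, from 1 library of a Chx10-Cre control mouse (Ptbp1-Ctrl) and 1 library of a Chx10-Cre;Ptbp1lox/lox mouse (Ptbp1-KO). Both mice carried the Chx10-Cre transgene, which expresses Cre recombinase in retinal progenitors, so that the control differs from the mutant in the floxed Ptbp1 alleles and not in Cre. Ptbp1 encodes an RNA-binding protein that regulates splicing. With 1 library per genotype there are no replicates, no test between genotypes was possible, and the 95% intervals below cover counting error only and not differences between mice, dissociations or libraries.

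The Ptbp1-Ctrl library held 16421 cells and 32758836 unique molecular identifiers (UMIs, 1 per captured RNA molecule), with a median of 1442 per cell, and the Ptbp1-KO library held 14522 cells and 35328593 UMIs, with a median of 1740. Ptbp1 itself had 825 UMIs in the control library and 14 in the knockout library, in the direction of the labels. Both libraries carried RNA of Y-linked genes, with 6164 and 7085 UMIs of Uty against 5 and 6 of Xist, whereas the methods of the study describe female mice. Of the barcode sequences, 63 occurred in both libraries. The deposited names are rods, cones, MG, BC (bipolar cells), AC (amacrine cells), HC (horizontal cells) and RGC (retinal ganglion cells), and each was checked against its markers, where every marker listed was highest in its own type in both libraries except Tfap2b of the AC list, which was highest in HC. RNA of 6 rod genes was found in every other type, at a median of 25% of the rod level in cones, 15.3% in BC, 17.7% in AC and 16.2% in MG of Ptbp1-Ctrl, and at 25.9%, 14.4%, 17.9% and 14.1% in Ptbp1-KO. The 2 haemoglobin genes Hbb-bs and Hba-a1, which mark red blood cells, summed to 0.10 CPM in control BC and 248 CPM in knockout BC, and to 69.6 and 86.0 CPM in rods, and their part in the results was not tested. UMIs were summed over the cells of a type and given as CPM (counts scaled to the same total of UMIs in every type and library).

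The promoter windows of 3 members and 1 neighbouring gene are shown because the results below turn on them: Cox7b, the member with the lowest KO/Ctrl ratio in every type compared, Magt1, the gene next to it on the opposite strand, and Ndufa3 and Atp5k, which were higher in Ptbp1-KO. Sequences are from RefSeq (GRCm38.p6), run from 250 bases before to 50 bases after the annotated start, and are written 5′ to 3′ on the strand of the gene. Capitals mark the core motif of nuclear respiratory factor 1 (NRF1), a transcription factor known to bind promoters of respiratory genes.
Cox7b, chrX:106015450-106015749, plus strand: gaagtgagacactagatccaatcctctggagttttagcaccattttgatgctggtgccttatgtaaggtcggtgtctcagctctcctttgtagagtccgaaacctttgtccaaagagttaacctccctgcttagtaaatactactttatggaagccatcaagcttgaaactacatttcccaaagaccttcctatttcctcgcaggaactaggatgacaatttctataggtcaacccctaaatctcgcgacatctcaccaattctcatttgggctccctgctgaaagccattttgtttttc
Magt1, chrX:106011753-106012052, minus strand: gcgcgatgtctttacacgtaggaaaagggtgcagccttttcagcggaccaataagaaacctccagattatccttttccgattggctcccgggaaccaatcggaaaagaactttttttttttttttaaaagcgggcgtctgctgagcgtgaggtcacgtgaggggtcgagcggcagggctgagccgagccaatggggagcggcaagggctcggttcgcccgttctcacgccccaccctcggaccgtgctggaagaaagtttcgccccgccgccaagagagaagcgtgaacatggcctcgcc
Ndufa3, chr7:3617123-3617422, plus strand: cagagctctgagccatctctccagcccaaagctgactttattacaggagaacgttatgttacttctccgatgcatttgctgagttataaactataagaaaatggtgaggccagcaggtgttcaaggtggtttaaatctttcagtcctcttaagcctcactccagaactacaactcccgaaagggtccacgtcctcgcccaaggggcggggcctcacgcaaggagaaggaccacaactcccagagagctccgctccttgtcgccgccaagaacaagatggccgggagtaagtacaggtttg
Atp5k, chr5:108434350-108434649, minus strand: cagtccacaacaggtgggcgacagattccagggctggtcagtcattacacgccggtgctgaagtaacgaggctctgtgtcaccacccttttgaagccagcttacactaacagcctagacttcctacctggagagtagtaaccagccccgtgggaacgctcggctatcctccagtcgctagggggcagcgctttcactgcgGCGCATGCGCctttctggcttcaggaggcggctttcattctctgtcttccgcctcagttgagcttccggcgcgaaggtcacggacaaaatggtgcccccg
Of the 96 nuclear members, 80 matched a promoter window. The NRF1 core GCATGCGC or its reverse complement GCGCATGC was present in 12 of the 80 (15%), against 3.05% of all genes with a window of the same 300 bases. The YY1 core ATGGCGGC or GCCGCCAT was present in 8 (10.0%), against 2.61%, and the ETS core CCGGAAGT or ACTTCCGG in 5 (6.25%), against 4.31%. In the Atp5k window the 2 forms of the NRF1 core overlap. The windows of Cox7b, Magt1 and Ndufa3 held none of these letters.

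The first comparison asks how much oxidative phosphorylation RNA each cell type held, and whether the mutant retina differed. The nuclear genes summed to between 18756 and 28074 CPM in the 5 types of Ptbp1-Ctrl with enough cells to compare, and to between 17811 and 26493 CPM in Ptbp1-KO. Cones were the highest in both libraries, followed by BC, AC, rods and MG in the same order. The Ptbp1-Ctrl and Ptbp1-KO values of the nuclear sum were 19714 and 18729 CPM in rods. They were 28074 and 26493 CPM in cones. In BC they were 21357 and 21406 CPM, in AC 20335 and 20977 CPM, and in MG 18756 and 17811 CPM. The log2 ratio of Ptbp1-KO to Ptbp1-Ctrl was thus -0.07 in rods (interval -0.08 to -0.07), -0.08 in cones (-0.10 to -0.06), 0.00 in BC (-0.01 to 0.01), 0.04 in AC (0.03 to 0.06) and -0.07 in MG (-0.09 to -0.06). In CPM, and among these 5 types, the nuclear sum changed most in cones, by -5.63%. These small ratios moved with the processing. With each of the 4 deposited rod clusters given the same weight in both libraries, the ratio in rods was 0.03. With cells thinned to 1000 UMIs it was -0.21 in rods and -0.18 in cones. Without members under 600 bases it was -0.01 in AC.

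In CPM, the mt- sum had a ratio farther from 0 than the nuclear sum in each of the 5 types. This order turned with cells thinned to 1000 UMIs in cones (-0.15 against -0.18 for the nuclear sum) and BC (0.0036 against -0.045). It also turned in rods with the same cluster weights in both libraries (-0.015 against 0.029). After subtraction of a free RNA profile it turned in AC (-0.079 against 0.088). In BC it also turned where the nuclear sum left out Cox7b (0.024) or members under 600 bases (-0.055). The mt- sum was 27779 CPM in control rods and 22508 CPM in knockout rods, a log2 ratio of -0.30 (-0.31 to -0.30). It was 26660 and 22608 CPM in MG (-0.24, -0.25 to -0.23) and 40554 and 35705 CPM in cones (-0.18, -0.20 to -0.17). It was 22582 and 20632 CPM in AC (-0.13, -0.15 to -0.11) and 35184 and 34687 CPM in BC (-0.02, -0.03 to -0.01). The mt- sum was lower in Ptbp1-KO in each of the 5 types, least in BC, where the ratio was 0.00 with thinned cells and 0.03 after subtraction of a free RNA profile. Cones were highest and BC next in both libraries, and in Ptbp1-KO the intervals of rods and MG overlapped. There were 1.41 mt- UMIs per nuclear member UMI in rods of Ptbp1-Ctrl and 1.2 in Ptbp1-KO, 1.44 and 1.35 in cones, 1.65 and 1.62 in BC, 1.11 and 0.984 in AC, and 1.42 and 1.27 in MG. The median percent of UMIs from mt- genes per cell was 1.92% and 1.51% in rods and 2.59% and 1.97% in MG.

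**Figure D1:**
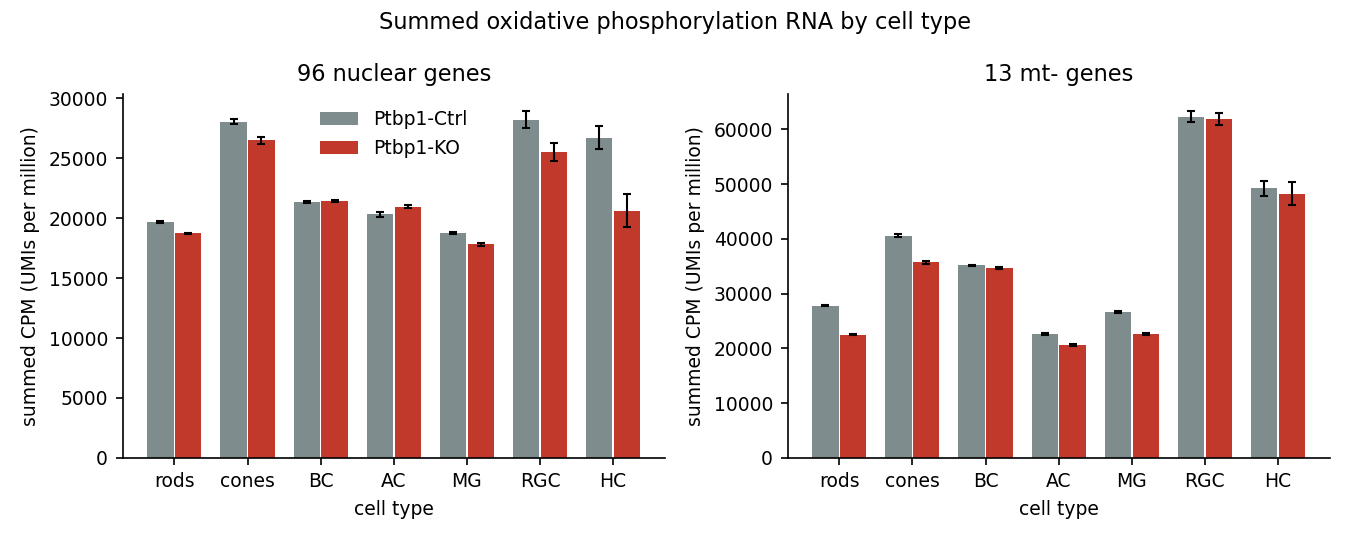
Summed CPM of the 96 nuclear genes (left) and the 13 mt- genes (right) in 7 cell types, with grey bars for Ptbp1-Ctrl, red bars for Ptbp1-KO and exact Poisson 95% intervals of counting error. The nuclear bars of the 5 types from rods to MG are nearly level between libraries, and the mt- bars are lower in Ptbp1-KO, most in rods (27779 and 22508 CPM).

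The mt- ratio in rods differed with the weight given to the deposited rod clusters. The deposited table divides rods into 4 clusters, and cluster 0, with the lowest mt- level, held 45.9% of the control rods and 58.7% of the knockout rods. Cluster 3, with a high mt- level, held 18.2% and 10.5%. Within cluster 0 the mt- sum was 8787 CPM (Ptbp1-Ctrl) and 10102 CPM (Ptbp1-KO), and within cluster 1 it was 47982 and 51630 CPM, so both lay above the control, by 0.20 and 0.11 on the log2 scale. Within cluster 2 it was 22500 and 21811 CPM (-0.04), and within cluster 3 it was 53926 and 45024 CPM (-0.26). With the same cluster weights in both libraries the log2 ratio of the mt- sum in rods was -0.01, against -0.30 without them. In MG it was -0.24 under the same weighting, and in AC -0.16. Rods had a median of 1088 UMIs per cell in the control library against 1288 in the knockout library, and the part of depth in these shares was not tested. Over the 21 clusters, each with the cells of its main type, the mt- ratio lay below 0 with its whole interval in 15 and above 0 in 4, and ranged from -0.34 in AC cluster 6 to 0.20 in rod cluster 0.

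**Figure D2:**
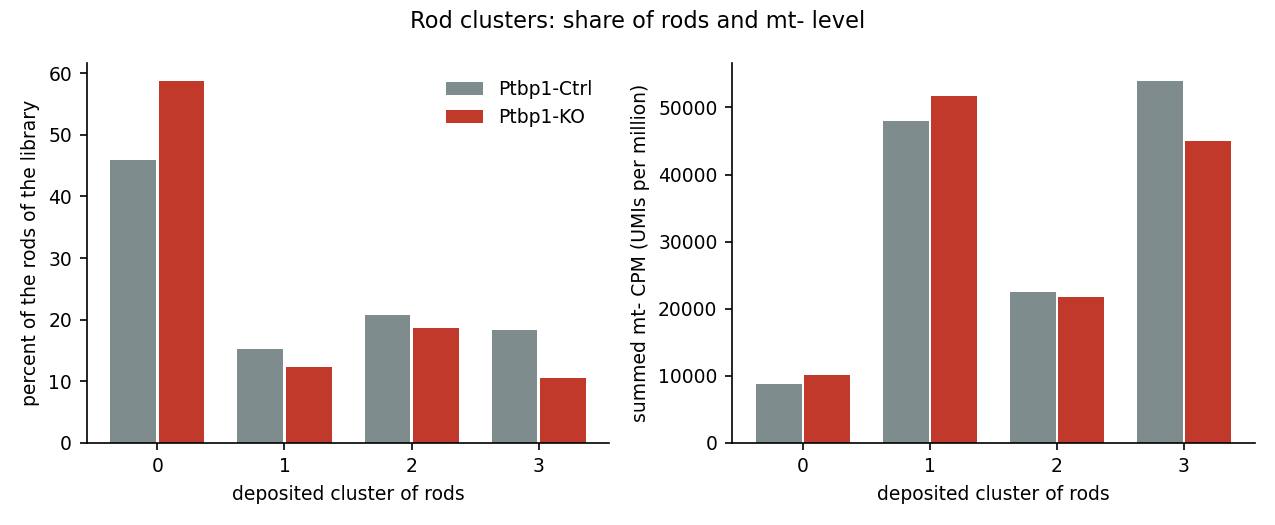
The 4 deposited rod clusters, with the percent of the rods of each library they hold (left) and their summed mt- CPM (right), grey for Ptbp1-Ctrl and red for Ptbp1-KO. Cluster 0 has the lowest mt- level and takes 45.9% of Ptbp1-Ctrl rods and 58.7% of Ptbp1-KO rods.

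RGC and HC were few and are given as levels only. RGC, with 124 and 97 cells, held 62309 CPM of mt- RNA in the control library and 61854 CPM in the knockout library, above every other type. Their level of the 6 rod genes was 62.6% and 91.6% of that in rods, and 25.8% and 23.7% of RGC had 10% or more of their UMIs from mt- genes, against 1.48% and 0.60% of rods. HC, with 17 and 7 cells, held 49198 and 48214 CPM of mt- RNA. The nuclear sum was 28242 and 25543 CPM in RGC and 26730 and 20583 CPM in HC.

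By complex, the nuclear subunits of complex IV summed lower in Ptbp1-KO in each of the 5 types. Without Cox7b the interval of the ratio stayed below 0 in rods, cones and MG, spanned 0 in BC and lay above 0 in AC. The 18 nuclear complex IV subunits summed to 5785 CPM in control rods and 5186 CPM in knockout rods, a log2 ratio of -0.16, with -0.14 in cones, -0.07 in BC, -0.04 in AC and -0.16 in MG. Without Cox7b the ratios were -0.09 in rods, -0.08 in cones, -0.00 in BC, 0.06 in AC and -0.08 in MG. Nuclear subunits of complex I, which takes electrons from NADH, had ratios of -0.08 in rods, cones and MG, 0.00 in BC and 0.04 in AC. Those of complex III, which passes electrons to cytochrome c, were at -0.03 in rods, 0.00 in cones, 0.08 in BC, 0.08 in AC and 0.07 in MG. Those of complex V, which makes ATP, were at -0.02 in rods, -0.07 in cones, 0.06 in BC, 0.13 in AC and -0.02 in MG. For complex II, the only complex with no mt- subunit, the interval spanned 0 in each of the 5 types, with ratios of -0.06 in rods, -0.17 in cones, 0.03 in BC, 0.11 in AC and -0.07 in MG and 275 to 324 CPM over the 4 subunits in Ptbp1-KO and 288 to 312 CPM in Ptbp1-Ctrl.

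Single nuclear members were compared where the mean of both libraries reached 50 CPM and both together held at least 50 UMIs. In rods 82 of the 96 passed this minimum, of which 3 were higher in Ptbp1-KO by at least 0.3 on the log2 scale and 4 were lower, against 4.72% and 4.28% of the 3855 genes that passed it. In cones 4 of 83 were higher and 10 lower, against 9.41% and 10.1% of genes. In BC 4 of 81 were higher and 2 lower, against 3.26% and 2.99%. In AC 8 of 80 were higher and 1 lower, against 6.88% and 5.82%. In MG 3 of 80 were higher and 4 lower, against 6.75% and 8.51%. The counts moved with the scaling. Under TMM scaling (which sets the libraries level by a trimmed mean of gene ratios) 3 of 82 were higher and 12 lower in rods, against 2.57% and 10.4% of genes. With cells thinned to 1000 UMIs 2 of 82 were higher and 19 lower in rods, against 8.84% and 9.26% of genes, and in cones 3 of 83 were higher and 27 lower, against 18.1% and 20.2%. The median log2 ratio over the members that passed was -0.09 in rods and -0.09 in cones, where all genes had 0.00 and -0.02. It was -0.02 in BC against -0.01, 0.01 in AC against -0.01, and -0.08 in MG against -0.02. Of the members that passed, 54 of 82 in rods had a ratio below 0, as had 1887 of 3855 genes. The counts were 54 of 83 and 2177 of 3997 in cones, 44 of 81 and 2151 of 4176 in BC, 39 of 80 and 2379 of 4522 in AC, and 57 of 80 and 2307 of 4205 in MG.

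In all 5 types at once, 77 nuclear members passed the minimum. Ndufa3 was the 1 member higher by at least 0.3 in each type, where 0.271% of 2583 genes were, and Cox7b was the 1 member lower by at least 0.3 in each, where 0.465% of genes were. By intervals alone, 7 of the 77 lay above 0 in every type, against 1.63% of genes: Atp5e, Atp5k, Atp5md and Atp5mpl of complex V, Ndufa2 and Ndufa3 of complex I, and Cox7c of complex IV. Cox7b alone lay below 0 in every type, against 2.52% of genes. These intervals narrow with more UMIs, so genes of higher level pass more readily, and level was not matched in this comparison.

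**Figure D3:**
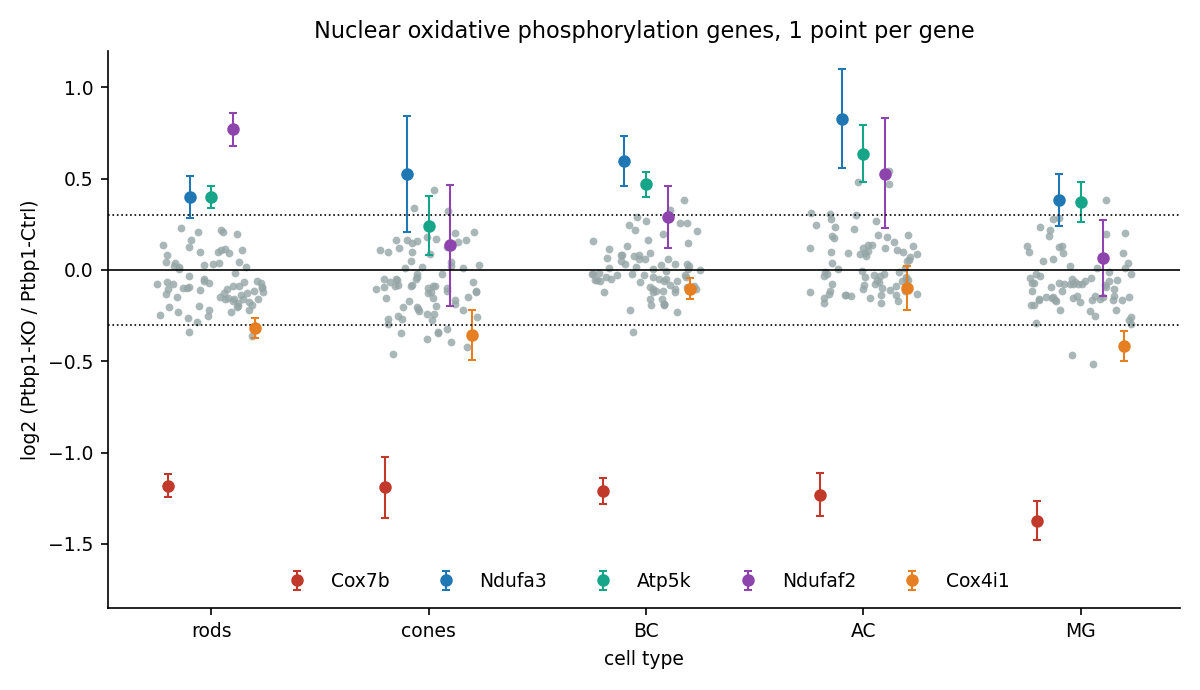
Log2 ratio of Ptbp1-KO to Ptbp1-Ctrl for each nuclear member that passed the minimum, by cell type, with 5 members in colour with 95% intervals of counting error and dotted lines at 0.3 and -0.3. Grey points lie mostly between the dotted lines, and Cox7b lies near -1.2 in rods, cones, BC and AC and at -1.37 in MG.

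Cox7b encodes a small nuclear subunit of cytochrome c oxidase and lies on chromosome X (mm10 chrX:106015700-106022450, plus strand). Its level was 470 CPM in control rods (6133 UMIs) and 207 CPM in knockout rods (3004 UMIs), a log2 ratio of -1.18 (-1.25 to -1.12). It was 652 and 286 CPM in cones (-1.19, -1.36 to -1.03), 520 and 225 CPM in BC (-1.21, -1.28 to -1.14), 641 and 273 CPM in AC (-1.23, -1.35 to -1.11), and 483 and 186 CPM in MG (-1.37, -1.48 to -1.27). The ratio of Cox7b thus lay between -1.37 and -1.18 over neurons and glia. It was lower in Ptbp1-KO in each of the 21 clusters, from -1.47 to -1.03. From the lowest ratio upwards, Cox7b stood 5 of 3855 genes in rods, 4 of 3997 in cones, 3 of 4176 in BC, 2 of 4522 in AC and 4 of 4205 in MG. It made up 2.39% of the nuclear member UMIs in rods of Ptbp1-Ctrl and 1.11% in Ptbp1-KO, and without it the nuclear ratio was -0.06 in rods, -0.07 in cones, 0.02 in BC, 0.07 in AC and -0.05 in MG.

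The genes beside Cox7b were listed whatever their value. Within 500 kb the annotation held 25 genes with Cox7b, of which 10 were in the count table. Magt1, which encodes a magnesium transport and glycosylation protein and starts next to Cox7b on the other strand, was also lower in Ptbp1-KO in all 5 types. It had 78.8 and 28.1 CPM in rods (-1.49), 53.3 and 19.6 CPM in cones (-1.44), 56.8 and 18.2 CPM in BC (-1.64), 64.4 and 18.1 CPM in AC (-1.83), and 162 and 90.1 CPM in MG (-0.85). Atp7a, a copper transporter gene on the other side of Cox7b, was lower in all 5, at -0.46 in rods, -0.99 in cones, -1.0 in BC, -1.02 in AC and -0.54 in MG. Magt1 and Atp7a passed the minimum in rods and MG and not in cones, BC and AC. Atrx, beyond Magt1, had ratios of 0.18 in rods, -0.17 in cones, 0.03 in BC, 0.06 in AC and -0.02 in MG. Pgk1, a glycolysis gene beyond Atp7a, had -0.46 in rods and -0.74 in cones, but -0.09 in BC, -0.07 in AC and 0.16 in MG. Taf9b, beyond Pgk1, had 0.35 in rods, -0.93 in cones, -0.04 in BC, 1.22 in AC and -0.12 in MG, with intervals spanning 0. Fgf16, Tlr13, Fnd3c2 and Fndc3c1 had at most 18 UMIs in any of these types of a library. Neither Taf9b nor these genes passed the minimum in any of these types.

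**Figure D4:**
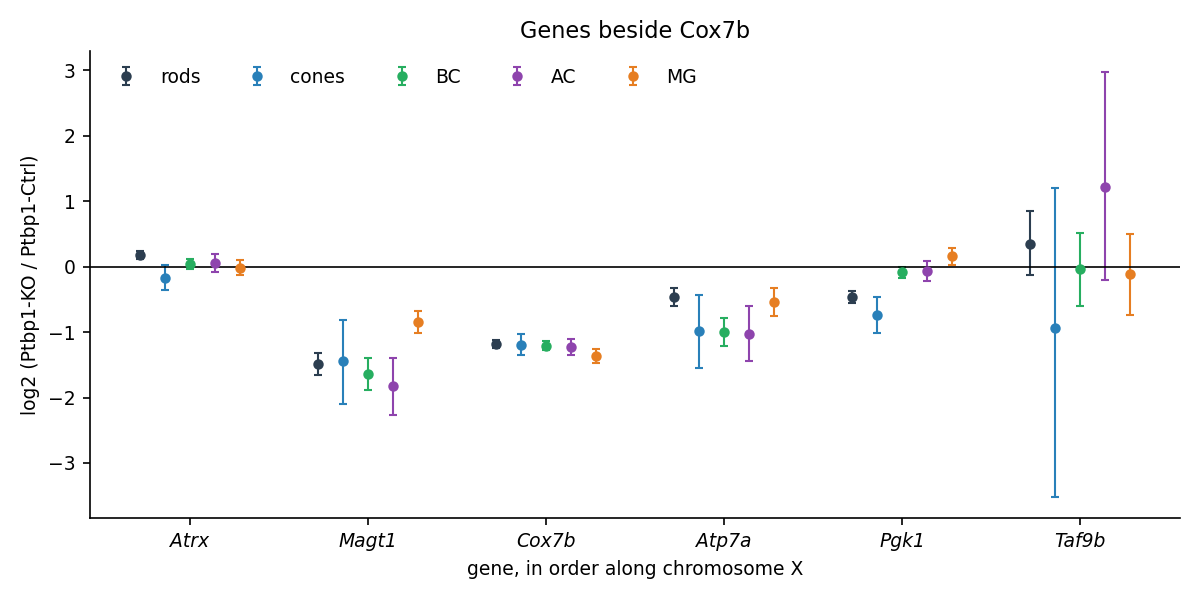
Log2 ratio of Ptbp1-KO to Ptbp1-Ctrl for Cox7b and 5 genes around it, in their order along chromosome X, with 1 coloured point per cell type and 95% intervals of counting error. Magt1, Cox7b and Atp7a lie below 0 in all 5 types, and Atrx lies near 0.

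Ndufa3, a small accessory subunit of complex I, had 77.2 and 102 CPM in rods of Ptbp1-Ctrl and Ptbp1-KO (log2 ratio 0.40), 88.2 and 127 CPM in cones (0.52), 75.6 and 114 CPM in BC (0.60), 75.1 and 133 CPM in AC (0.82) and 127 and 166 CPM in MG (0.38). Atp5k, a small membrane subunit of ATP synthase, had 284 and 375 CPM in rods (0.40), 359 and 425 CPM in cones (0.24), 290 and 401 CPM in BC (0.47), 230 and 358 CPM in AC (0.64) and 221 and 286 CPM in MG (0.37). Both were thus higher in Ptbp1-KO in every type, and most in AC. Atp5md, another small subunit of ATP synthase, was at 0.54 in AC, 0.38 in MG and 0.22 in rods. Ndufaf2, an assembly factor of complex I, was the member with the highest ratio in rods, with 119 and 203 CPM (0.77, 0.68 to 0.86), but was at 0.13 in cones and 0.07 in MG, where its intervals spanned 0. Among the members lower in Ptbp1-KO, Cox4i1, the common isoform of the regulatory subunit 4 of cytochrome c oxidase, had 462 and 371 CPM in rods (-0.32), 650 and 507 CPM in cones (-0.36) and 525 and 394 CPM in MG (-0.42), but -0.10 in BC and AC. Cox7a2l was at -0.34 in rods, -0.30 in cones and -0.46 in MG. Cones, where more of all genes were past the fold too, had the most such members, with Ndufs8 of complex I at -0.46 and the ATP synthase c-subunit genes Atp5g1 and Atp5g3 at -0.42 and -0.40, while the highest after Ndufa3 was the assembly factor Ndufaf4 at 0.44 (0.02 to 0.86), which stood at -0.070 with cells thinned to 1000 UMIs. In BC the lowest after Cox7b were Sdhaf1, an assembly factor of complex II, at -0.34, and Ndufb5 of complex I at -0.23.

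Members with a higher ratio tended to have short transcripts, a split made after the values were seen. Of the nuclear members that passed the minimum and had an annotated transcript, the 26 with a median annotated length under 600 bases had a median log2 ratio of 0.01 in rods, 0.04 in cones, 0.05 in BC and 0.13 in AC, and the longer ones had -0.11, -0.12, -0.04 and -0.04. In MG the 27 short members had 0.01 and the longer ones -0.12. Across these genes, which are not independent replicates and share libraries and depth, Spearman's rho of ratio and length was -0.21 in rods, -0.21 in cones, -0.23 in BC, -0.35 in AC and -0.22 in MG, against 0.23, 0.13, 0.08, 0.01 and 0.13 over all genes. Over all genes, short ones had medians of -0.05 in rods, 0.02 in cones, 0.07 in BC, 0.08 in AC and 0.01 in MG. The longer ones had 0.00, -0.03, -0.01, -0.01 and -0.02. The part of transcript length in these ratios was not tested.

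The 13 mt- genes did not share 1 direction. mt-Atp8 and mt-Nd3 were higher in Ptbp1-KO with intervals above 0 in all 5 types, and mt-Atp6, mt-Co2 and mt-Co3 were lower with intervals below 0 in all 5. mt-Atp8, a small subunit of ATP synthase, had 440 and 552 CPM in rods (0.33), 579 and 763 CPM in cones (0.40), 372 and 577 CPM in BC (0.63), 289 and 412 CPM in AC (0.51) and 450 and 543 CPM in MG (0.27). mt-Nd3, a core subunit of complex I, had ratios of 0.08 in rods, 0.42 in cones, 0.65 in BC, 0.47 in AC and 0.33 in MG. mt-Nd4l, also of complex I, had 0.08 in rods, 0.09 in cones, 0.53 in BC, 0.39 in AC and 0.38 in MG. mt-Atp6, whose reading frame overlaps that of mt-Atp8 on the same transcript, went the other way, with 6420 and 4596 CPM in rods (-0.48), 8231 and 6361 CPM in cones (-0.37), 6607 and 6039 CPM in BC (-0.13), 5100 and 4228 CPM in AC (-0.27) and 6062 and 4253 CPM in MG (-0.51). mt-Co2 and mt-Co3, core subunits of cytochrome c oxidase, had -0.38 and -0.36 in rods, -0.24 and -0.21 in cones, -0.11 and -0.09 in BC, -0.26 and -0.19 in AC, and -0.35 and -0.35 in MG. mt-Co1, the core subunit that holds the oxygen-binding site, had -0.10 in rods, 0.00 in cones, -0.01 in BC, -0.09 in AC and -0.22 in MG. mt-Cytb, the complex III member, had -0.36 in rods, -0.21 in cones, -0.01 in BC, -0.09 in AC and -0.20 in MG.

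Of the remaining complex I genes, mt-Nd2 had -0.36 in rods, -0.33 in cones, 0.02 in BC, -0.22 in AC and -0.13 in MG, and mt-Nd4 had -0.32, -0.29, -0.01, -0.15 and -0.13. mt-Nd1 lay between -0.09 in rods and 0.18 in BC, and mt-Nd5 between -0.03 in cones and 0.23 in MG. mt-Nd6, the 1 protein gene on the other strand of the mitochondrial DNA, had 95 and 82 CPM in rods (-0.22), and its intervals spanned 0 in the other 4 types. The 4 mt- genes annotated under 600 bases had median ratios of 0.08 in rods, 0.24 in cones, 0.58 in BC, 0.43 in AC and 0.30 in MG, and the 9 longer ones -0.36, -0.21, -0.01, -0.15 and -0.20. Copies of mitochondrial sequence in the nuclear genome can share reads with mt- genes, and how the counting treated them is not given in the sources used here.

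**Figure D5:**
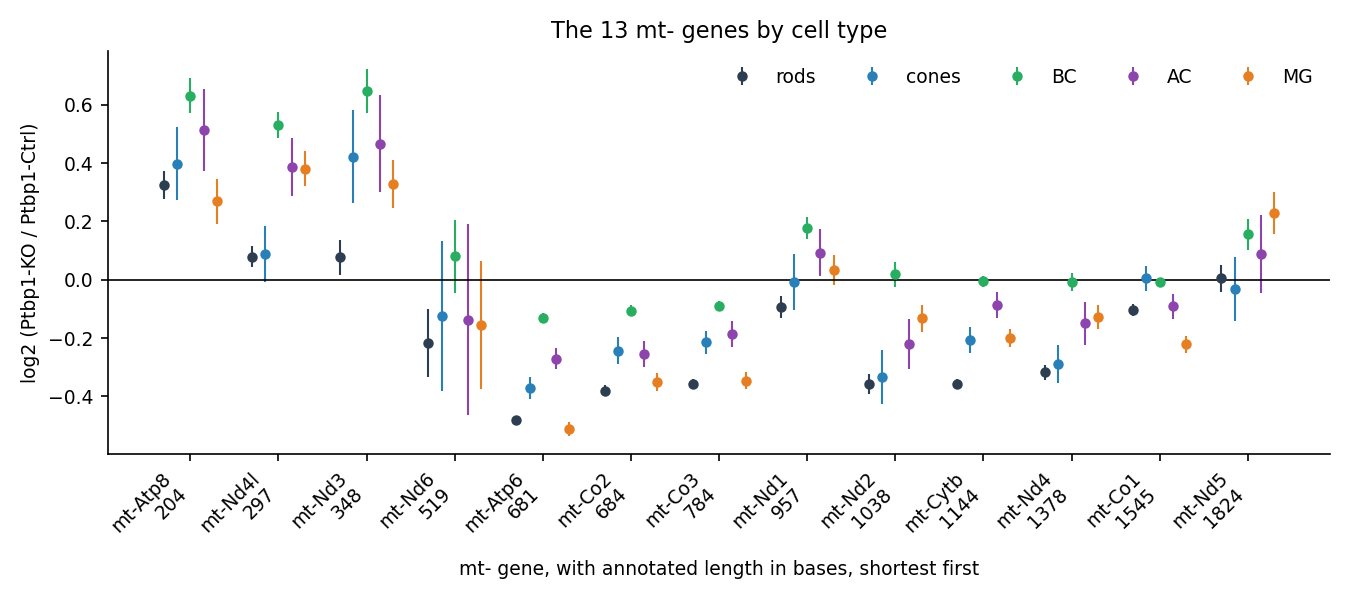
Log2 ratio of Ptbp1-KO to Ptbp1-Ctrl for the 13 mt- genes, ordered by annotated length, with 1 coloured point per cell type and 95% intervals of counting error. mt-Atp8, mt-Nd4l and mt-Nd3 at the left lie above 0, and mt-Atp6, mt-Co2 and mt-Co3 lie below 0 in all 5 types.

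Several members were rich in 1 cell type, in the same way in both libraries. Against the mean of the other 4 types, cones were higher in both libraries for 69 of 84 nuclear members, and lower for 7, where 42.4% and 45.3% of all genes were. MG were lower for 61 of 83 and higher for 17, against 56.5% and 38.4% of genes, and rods were lower for 56 of 82 and higher for 20, against 47.6% and 46.8%. BC were higher for 35 of 82 (39.1% of genes) and lower for 33 (51.7%), and AC were higher for 33 of 82 (47.2%) and lower for 35 (42.9%). Cox4i2, the isoform of subunit 4 known for expression in lung and under low oxygen, had 543 CPM in control MG and 486 CPM in knockout MG, against a mean of 10.7 and 7.80 CPM in the other types. Its level in rods was 1.37% and 1.49% of that in MG, where the 5 MG markers had a median of 0.88% and 0.71%. Cox6b2, an isoform known from testis, had 119 and 83.2 CPM in MG, against a mean of 15.3 and 10.9 CPM. In MG it was among the 3 members that passed the minimum with the lowest KO/Ctrl ratios. Its level in AC was 31.0% and 26.2% of that in MG, where the markers had 2.72% and 1.83%. Ndufaf5, an assembly factor that modifies a complex I subunit, had 524 and 605 CPM in cones, against a mean of 59.4 and 62.9 CPM elsewhere. In rods it stood at 14.4% and 14.7% of the cone level, where the 5 cone markers had 0.57% and 0.63%.

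Cox8a, the common isoform of subunit 8, had 2401 and 2255 CPM in cones against a mean of 985 and 956 CPM. Atp5g1 had 751 and 561 CPM in cones against 312 and 281 CPM, whereas Atp5g2, which encodes the same mature c-subunit, had 361 and 368 CPM in cones and 372 and 360 CPM in BC. mt-Co1 had 7007 and 6963 CPM in BC, against a mean of 4005 and 3774 CPM in the other types. Ndufa4, now placed in complex IV, was lowest in MG, with 689 and 669 CPM against 1346 and 1317 CPM. The muscle isoforms were at or near 0: Cox6a2 had no UMI in rods, cones and MG of either library, and Cox8b had at most 4 UMIs in any of the 5 types of a library. Cox7a1 lay between 2.10 and 8.80 CPM, while the widely expressed Cox7a2 lay between 316 and 556 CPM. Ndufa4l2 had at most 24 UMIs per type and library.

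Other gene lists were set beside the members. Of all genes that passed the minimum, 4.28% were lower by at least 0.3 and 4.72% higher in rods, and 10.1% and 9.41% in cones. The shares were 2.99% and 3.26% in BC, 5.82% and 6.88% in AC, and 8.51% and 6.75% in MG. Of the mitochondrial ribosome genes (symbols starting with Mrpl or Mrps), 15 of the 42 that passed the minimum in cones were lower by at least 0.3 and 2 were higher. In rods 1 of 34 was lower and 2 were higher, in BC 1 of 31 was lower and 0 were higher, in AC 3 of 33 were lower and 1 was higher, and in MG 5 of 32 were lower and 0 were higher. The cytosolic ribosome genes had 38 of 80 lower and 1 higher in rods and 39 of 80 lower and 3 higher in MG, with medians of -0.29 and -0.28. They had 7 of 79 lower and 12 higher in cones, 4 of 78 lower and 10 higher in BC, and 2 of 79 lower and 13 higher in AC. Of the citric acid cycle genes, 1 of 9 was lower in cones, 1 of 9 was lower and 1 higher in AC, and 0 of 8 in rods, 0 of 9 in BC and 0 of 7 in MG were past the fold. Of the mitochondrial carrier and channel genes 2 of 6 were lower in cones, and 0 of 6 were past the fold in each of the other 4 types. Of the assembly factors and cytochrome c genes outside the symbol rule, 4 of 13 were lower in cones, 1 of 12 in BC and 1 of 12 in AC, and 0 of 13 in rods and 0 of 11 in MG were past the fold. Among 13 regulators of mitochondrial genes, Ppargc1b, a transcriptional coactivator, was past the fold in rods, with 91.2 and 164 CPM (0.84, 0.74 to 0.95), and none of those that passed the minimum was past it in the other 4 types.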

How the data were processed

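The authors prepared 10x Genomics Chromium 3' v3.1 libraries, aligned the reads to mm10 with Cell Ranger 7.0.1 and filtered cells in Seurat 4, per the processing notes and methods. The deposited count table held raw UMI counts, not normalized, and the deposited cell table gave the percent of UMIs from mt- genes, the total UMI count, cluster and cell type of each cell. The gene annotation, the use of intronic reads and doublet removal are not given in the sources used here. The stated filter (genes above 200 and below 5000, UMIs above 700 and below 10000, mitochondrial share under 20%) was checked on the table, and all 30943 cells met it. A further 3 columns of the cell table were not used.

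Groups came from the genotype in the sample labels. UMIs were summed per library and cell type and scaled to CPM, with exact Poisson intervals for levels and exact conditional binomial intervals for ratios (95%, counting error only). Ratios were checked on simulated data. The study compared cells with a Wilcoxon test, which was not used because cells of 1 mouse are not replicates. Genes past the fold had an absolute log2 ratio of at least 0.3, a mean of at least 50 CPM and at least 50 UMIs.

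Named genes were the 13 mt- genes, Cox7b, subunits with tissue isoforms, the 3 highest and 3 lowest ratios in each type, members past the fold in all 5 types and the 3 members per type that differed most from the other types. A further gene that met this rule is not reported here. The members, lists and tests were chosen with earlier results of these data known. Alternatives were TMM scaling (edgeR 4.0.16), CPM over nuclear UMIs, thinning to 1000 UMIs, subtraction of a free RNA profile, cells under 10% mitochondrial UMIs, cells outside the top 5% by UMIs and other thresholds. Cluster weights held the same in both libraries, leaving out members under 600 bases and leaving out shared barcodes were added after seeing the data. Each such weight was the share of a type's cells, over both libraries, in that cluster. Python 3.11.15, scipy 1.17.1 and R 4.3.3 were used. Positions are from GENCODE vM21.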

Additional observations from a re-analysis of the deposited data

Results flagged for a closer look

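Several ratios of Ptbp1-KO to Ptbp1-Ctrl pointed in opposite directions in 2 cell types or clusters, and none of these differences was tested. The log2 ratio of the nuclear sum was -0.0837 in cones and 0.0448 in AC. That of the assembly factors was -0.13 in MG and 0.0781 in rods. Nuclear subunits of complex I were at -0.079 in rods and 0.0376 in AC, those of complex III at -0.029 in rods and 0.0832 in BC, and those of complex V at -0.0674 in cones and 0.13 in AC. The mt- genes of complex I were at -0.17 in rods and 0.17 in BC. The mt- sum was at -0.26 in rod cluster 3 and 0.20 in rod cluster 0, and at -0.34 in AC cluster 6 and 0.0759 in AC cluster 15. Ndufb1-ps, the 1 symbol left out for holding -ps, was higher in Ptbp1-KO, at 0.31 in rods, 0.44 in cones, 0.41 in BC, 0.66 in AC and 0.37 in MG.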

How the results depend on the processing

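No paired analysis was possible because each genotype had 1 library and the labels carry no replicate numbers. Every ratio rests on 1 mouse per genotype, and the intervals leave out variation between mice. The cause of the changes below was not tested. Cox7b kept its direction in every type under every alternative run, from -1.43 to -1.10. Leaving out cells with shared barcodes moved no sum beyond its interval. For the nuclear sum, TMM scaling gave -0.17 in rods, -0.12 in cones, -0.031 in BC and -0.094 in MG. Thinning to 1000 UMIs gave -0.21 in rods, -0.18 in cones, -0.045 in BC, 0.0054 in AC and -0.10 in MG, with 4155 Ptbp1-Ctrl and 3126 Ptbp1-KO rods left out as too shallow. Subtracting a free RNA profile, which took 50.1% of cone UMIs of Ptbp1-Ctrl as free RNA, gave -0.11 in cones, 0.021 in BC and 0.088 in AC. Leaving out Cox7b gave -0.055 in rods, 0.024 in BC, 0.072 in AC and -0.052 in MG. Members of 600 bases or more, with members of unknown length kept, gave -0.13 in rods, -0.16 in cones, -0.055 in BC, -0.014 in AC, which turned its direction, and -0.14 in MG. The same cluster mix gave 0.029 in rods, which turned its direction, -0.011 in BC and -0.092 in MG. In rods, CPM over nuclear UMIs gave -0.082, cells under 10% mitochondrial UMIs -0.066 and cells outside the top 5% by UMIs -0.10. For the mt- sum, TMM scaling gave -0.40 in rods, -0.22 in cones, -0.055 in BC and -0.26 in MG. Thinning gave -0.41 in rods, -0.15 in cones, 0.0036 in BC, which turned its direction, and -0.092 in AC. Free RNA subtraction gave 0.028 in BC, which turned its direction, and -0.079 in AC. Cells under 10% mitochondrial UMIs gave -0.27 in rods and -0.16 in cones. Leaving out the top 5% of cells gave -0.29 in rods, -0.17 in cones and -0.25 in MG. The same cluster mix gave -0.015 in rods, -0.047 in BC and -0.16 in AC. The number of nuclear members past the fold, mainly 7 in rods, 14 in cones, 6 in BC, 9 in AC and 7 in MG, was 15 in rods with TMM scaling. With thinned cells it was 21 in rods, 30 in cones, 19 in AC and 15 in MG. After free RNA subtraction it was 26 in cones, 15 in AC and 15 in MG. With a minimum of 200 CPM it was 4 in rods, 9 in cones and 4 in MG, and with no minimum 11 in rods and 16 in AC. At a log2 ratio of 0.5 it was 2 in rods, 2 in cones, 2 in BC, 5 in AC and 2 in MG. Without members under 600 bases it was 2 in BC, 4 in AC and 4 in MG. Of all genes, 2.57% were higher and 10.4% lower in rods with TMM scaling. With thinned cells the shares were 8.84% and 9.26% in rods, and 18.1% and 20.2% in cones. For the other settings, and for thinned cells in AC and MG, the share of all genes was not taken. Among single members the ratio of Ndufaf4 in cones turned to -0.070 with thinned cells.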
